A study of Mus musculus with 6 samples.

Results

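The guanylate-binding proteins are a family of large GTPases encoded in the mouse by a gene cluster on chromosome 3 and another on chromosome 5. The 9 genes described here, Gbp2, Gbp3, Gbp4, Gbp5, Gbp6, Gbp7, Gbp8, Gbp9 and Gbp10, were chosen by symbol from the 34665 rows of the deposited count matrix, and each symbol matched a single row. Total RNA of whole tumours of B16, a mouse melanoma cell line, was sequenced in bulk, with the genotype labelled wild type. The first group, called ICI, holds 3 libraries from tumours given an immune checkpoint inhibitor (replicates 1, 2 and 3). The second group, called RT_ICI, holds 3 libraries from tumours given radiotherapy together with immunotherapy (replicates 1, 2 and 4). All 6 tumours therefore received immunotherapy, and no untreated or radiation-only tumour enters the comparison. Not given in the sources used here are the inhibitor and its target, the dose and field of the radiotherapy, the harvest time and the age of the animals.

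Interferon gamma, made mainly by T cells and NK cells, acts through its receptor and the kinases JAK1 and JAK2, and the guanylate-binding proteins are among the genes this pathway induces most strongly in many cell types. The proteins assemble on the vacuoles and membranes of intracellular microbes, help to break them open and promote inflammasome activation. Gbp2 and Gbp5 end in a motif that is prenylated, which anchors them to membranes, and delivery of the family to vacuoles depends on the LC3 lipidation machinery and on a related group, the immunity-related GTPases.

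In GRCm38 (GENCODE M21) the 4 members on chromosome 3 lie on the plus strand. They are Gbp5 at chr3:142493978-142522344, Gbp7 at chr3:142530342-142550149, Gbp3 at chr3:142560026-142573209 and Gbp2 at chr3:142620602-142638008. The 5 members on chromosome 5 lie on the minus strand. They are Gbp8 at chr5:105014150-105139540, Gbp9 at chr5:105077630-105139539, Gbp4 at chr5:105115767-105139586, Gbp10 at chr5:105215699-105239533 and Gbp6 at chr5:105270702-105293698. All 9 are annotated as protein coding, and the values below are counts over whole genes.

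The RefSeq promoter windows (GRCm38.p6, 250 bases before to 50 bases after the start) matched 4 members, those on chromosome 3. They are shown because interferon response motifs can be read in them. A pair of core motifs were searched on both strands: TTCNNNGAA, the core of the gamma-activated site, and GAAANNGAAA, a core of the interferon-stimulated response element. The stretches below read 5′ to 3′ on the plus strand, and capitals mark the motif matches. The first is chr3:142496852-142496895, the next chr3:142530216-142530297, then chr3:142559969-142560019 and chr3:142620574-142620618.
Gbp5: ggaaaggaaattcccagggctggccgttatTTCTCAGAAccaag
Gbp7: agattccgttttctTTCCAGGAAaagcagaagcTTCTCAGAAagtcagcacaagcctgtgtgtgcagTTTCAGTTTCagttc
Gbp3: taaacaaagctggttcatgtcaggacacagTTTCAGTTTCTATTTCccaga
Gbp2: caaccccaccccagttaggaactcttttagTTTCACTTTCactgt

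The response-element core was present in the windows of all 4 members, against 3.44% of the 32851 windows in the table. In each of the 4 it lay on the minus strand, so the printed letters are its reverse complement. It began 165 bases before the RefSeq start in Gbp5 (outside the stretch shown), 53 before in Gbp7 and 59 before in Gbp2. The GENCODE model of Gbp2 starts earlier than the RefSeq one, and 17 bases of the Gbp2 stretch, the match among them, lie in an annotated exon. That of Gbp5 also starts earlier, at chr3:142493978. The Gbp5 stretch therefore lies inside the GENCODE gene, though 0 of its bases lie in an annotated exon. Gbp3 held a pair of overlapping matches, 45 and 39 bases before its start. The gamma-activated core was present in Gbp5, at 245 and 52 bases before the start, and in Gbp7, at 106 and 87 bases before it, against 8.30% of all windows. This core reads alike on both strands. With 1 mismatch allowed, 71.4% of all windows held the gamma-activated core and 35.4% the response-element core. A match describes letters only and is no measurement of binding in these tumours.

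All 9 members had a lower mean in RT_ICI than in ICI, and none passed the test. Their log2 fold changes, RT_ICI minus ICI, ran from -2.39 for Gbp10 to -0.77 for Gbp5, with a median of -1.20, beside a median of 0.01 over all 16924 genes tested. All 9 values were negative, as were 49.0% of those of all genes. The spread between libraries was wide: the median standard error (SE) was 0.80 for the members and 0.23 for all tested genes. Adjusted p-values (edgeR's quasi-likelihood test, Benjamini-Hochberg over all tested genes) ran from 0.184 to 0.505. Against these 0 called members of 9, 9.18% of all genes were called at an adjusted p under 0.05, 4.72% lower and 4.46% higher in RT_ICI. With upper-quartile scaling 9.12% were called in either direction and 2.94% lower, and again 0 members. At an unadjusted p under 0.05 there were also 0 members, against 31.5% of all genes. No member had all RT_ICI libraries below all ICI libraries, against 19.4% of all genes. DESeq2 called 0 members beside 20.4% of all genes, with 2 of 9 at an unadjusted p under 0.05 beside 32.9%. Limma-voom called 0 beside 7.84%, with 0 at an unadjusted p under 0.05 beside 31.8%. The calls over all genes rested on single libraries: without ICI replicate 1 or without RT_ICI replicate 2, 0% of genes were called, without ICI replicate 3 it was 0.0115%, without RT_ICI replicate 4 it was 0.549%, and without ICI replicate 2 it was 3.02%. Without RT_ICI replicate 1 the share was 17.7%, and 0 members were called in any of these 6 fits.

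Library totals ran from 22543721 to 45624013 counts, and the 9 members together took 0.0401%, 0.0471% and 0.00999% of the counts in ICI replicates 1, 2 and 3 and 0.0194%, 0.00815% and 0.00399% in RT_ICI replicates 1, 2 and 4. The last of these, the smallest, rests on 899 counts (95% Wilson interval 0.00374% to 0.00426%, counting error only). Melanoma markers (7 of 7 tested, Pmel, Tyr and Dct among them) summed to between 10070 and 15180 CPM (a gene's count scaled to library size), so the labelled tumour type was seen in each library. Of the 7, edgeR called 1 higher in RT_ICI, Mlana (log2 fold change 0.75, edgeR adjusted p = 0.0376), and 0 lower. Other tissue was present unevenly: the summed skeletal muscle markers ran from 0.941 to 188 CPM in ICI and from 14.3 to 2071 CPM in RT_ICI, and those of red cells reached 2720 CPM in ICI replicate 3 against at most 378 CPM elsewhere. Fat cell markers (5 tested) summed to 3.88, 4.88 and 23.7 CPM in ICI replicates 1, 2 and 3 and to 53.9, 37.3 and 46.9 CPM in RT_ICI replicates 1, 2 and 4, without overlap. Of these markers edgeR called 1 higher, Lipe, beside 4.46% of all genes. Cfd was the largest part in ICI replicate 3 (15.5 CPM) and in RT_ICI (39.3, 24.9 and 27.1 CPM). The groups did not overlap for Cfd, Lipe and Cidec. They did for Adipoq and Plin1, which were highest in ICI replicate 3, at 2.2 and 1.32 CPM. The share of all genes higher in RT_ICI without overlap was not counted. Whether this separation of fat cell markers is unusual therefore cannot be said. Of 7 fibroblast markers tested edgeR called 0, with 1 at an unadjusted p under 0.05, beside 31.5% of all genes. They summed to between 117 and 728 CPM in ICI and between 368 and 753 CPM in RT_ICI. The part of these tissues in the values below was not tested. In bulk RNA, fewer cells that express a gene and less RNA of it per cell cannot be told apart. The levels below are CPM after TMM scaling, in the order of replicates 1, 2 and 3 for ICI and 1, 2 and 4 for RT_ICI.

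**Figure D1:**
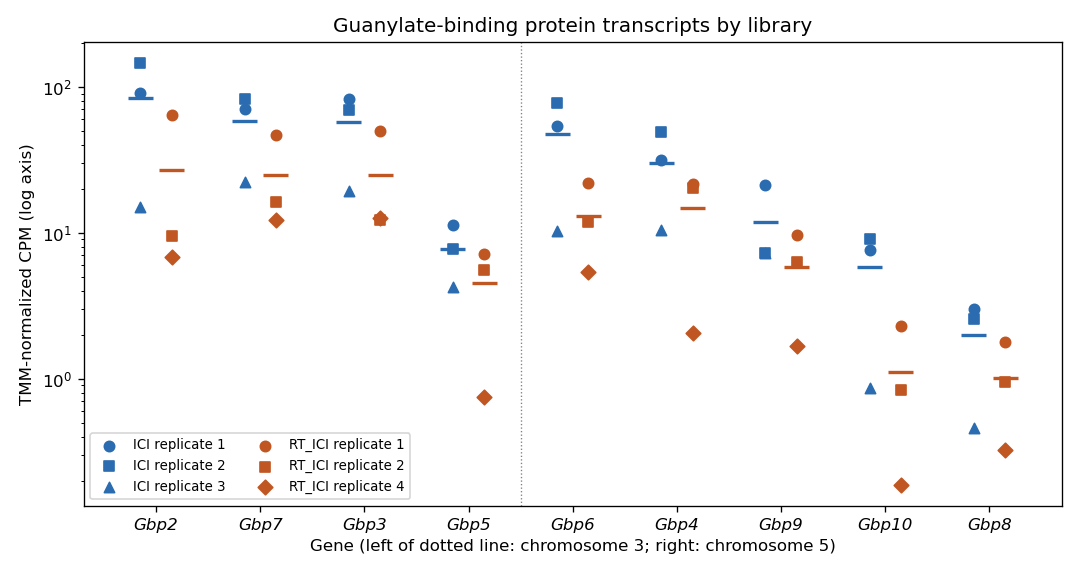
TMM-normalized CPM (log axis) of each of the 9 genes in each library, blue for ICI and orange for RT_ICI, with marker shape for the replicate and a bar for the group mean; genes of chromosome 3 stand left of the dotted line. For all 9 genes RT_ICI replicate 1 lies above ICI replicate 3, so the groups overlap, while the mean is lower in RT_ICI.

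Gbp2, a prenylated member that coats microbial vacuoles, had the highest mean level per kilobase of the 9 in ICI. It stood at 90.2, 145 and 14.9 CPM in ICI and at 64.6, 9.49 and 6.81 CPM in RT_ICI. ICI replicate 3 was low within its group and RT_ICI replicate 1 was high within its own, and the groups overlapped. The means were 83.3 ± 65.2 CPM in ICI and 27.0 ± 32.6 CPM in RT_ICI (SD, n = 3 each). The log2 fold change was -1.63 (SE 1.22, 95% interval -4.75 to 1.5, edgeR adjusted p = 0.406). That is 3.09-fold lower, within a 9.69-fold spread between the ICI libraries and a 9.47-fold spread between the RT_ICI libraries. Gbp2 was the member that moved most with 1 library: its log2 fold change was -3.34 without RT_ICI replicate 1 and -0.98 without ICI replicate 2.

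Gbp5, the other prenylated member, takes part in activation of the NLRP3 and AIM2 inflammasomes. It stood at 11.3, 7.70 and 4.22 CPM in ICI and at 7.20, 5.54 and 0.747 CPM in RT_ICI. Here only RT_ICI replicate 4 lay well below the rest. Its log2 fold change, -0.77 (SE 0.74, 95% interval -2.54 to 1.00, edgeR adjusted p = 0.505), was the smallest in size of the 9, and without RT_ICI replicate 4 it was -0.28.

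Gbp3, which is recruited to parasite vacuoles, stood at 82.8, 69.8 and 19.3 CPM in ICI and at 50.2, 12.3 and 12.6 CPM in RT_ICI. Both RT_ICI replicates 2 and 4 were below every ICI library, and RT_ICI replicate 1 was not. The log2 fold change was -1.20 (SE 0.81, 95% interval -3.22 to 0.82, edgeR adjusted p = 0.355), and -2.20 without RT_ICI replicate 1. Gbp7, linked to assembly of the phagocyte NADPH oxidase, stood at 70.1, 82.7 and 22.3 CPM in ICI and at 46.6, 16.2 and 12.2 CPM in RT_ICI, the same order of groups as Gbp3. Its log2 fold change was -1.22 (SE 0.70, 95% interval -2.95 to 0.51, edgeR adjusted p = 0.283), and -2.03 without RT_ICI replicate 1. An overlapping gene model on the same strand, Gm43802, covers 11.3% of the exon length of Gbp7, and its value is uncertain to that extent.

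Of the chromosome 5 genes, Gbp6 had the highest mean level per kilobase in ICI. Its protein, like those of Gbp3, Gbp7 and Gbp9, is recruited to vacuoles. It stood at 53.7, 77.8 and 10.2 CPM in ICI and at 22.1, 11.8 and 5.41 CPM in RT_ICI, where only RT_ICI replicate 4 lay below every ICI library. The means were 47.2 ± 34.2 and 13.1 ± 8.42 CPM (SD, n = 3 each), and the log2 fold change was -1.84 (SE 0.86, 95% interval -4.00 to 0.31, edgeR adjusted p = 0.209).

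Gbp10 had the lowest log2 fold change of the 9 and, with Gbp8, the lowest mean levels per kilobase of the longest transcript. It stood at 7.62, 9.13 and 0.857 CPM in ICI and at 2.31, 0.834 and 0.187 CPM in RT_ICI, the last of these a count of 4. RT_ICI replicates 2 and 4 were below every ICI library, the former by a narrow margin. The log2 fold change was -2.39 (SE 1.07, 95% interval -4.98 to 0.20, edgeR adjusted p = 0.184), and -3.40 without RT_ICI replicate 1.

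Gbp6 and Gbp10 cannot be read as independent genes. Stretches of at least 200 bases at 95% identity or more to other genes cover 99.7% of the Gbp10 transcript and 69.7% of that of Gbp6, and the longest shared stretch, 3131 bases, is 99.2% identical between them. The read-through gene model Gm43302 overlaps 46.3% of the exon length of Gbp10 and 29.0% of that of Gbp6. It stood at 15.3, 24.8 and 2.70 CPM in ICI and at 6.85, 3.74 and 2.01 CPM in RT_ICI. Nothing in the sources used here says how reads that fit several places were counted. The 3 rows summed into 1 gave a log2 fold change of -1.87 (SE 0.89, edgeR adjusted p = 0.217), close to that of Gbp6. All 5 chromosome 5 members summed gave -1.44 (SE 0.85, edgeR adjusted p = 0.301).

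Gbp4 stood at 31.4, 48.7 and 10.5 CPM in ICI and at 21.7, 20.4 and 2.05 CPM in RT_ICI. RT_ICI replicates 1 and 2 were alike for this gene, unlike for Gbp2, Gbp3 and Gbp7, and both lay above ICI replicate 3. The log2 fold change was -1.03 (SE 0.95, 95% interval -3.41 to 1.36, edgeR adjusted p = 0.496), and -0.51 without ICI replicate 2. Gbp9 stood at 21.3, 7.25 and 7.26 CPM in ICI and at 9.61, 6.29 and 1.68 CPM in RT_ICI. It was the only member for which ICI replicate 3 was not the lowest of its group and RT_ICI replicate 1 was above ICI replicate 2. Its log2 fold change was -1.02 (SE 0.70, 95% interval -2.70 to 0.66, edgeR adjusted p = 0.353), and -0.32 without ICI replicate 1. Gbp8 had a low level throughout, 2.99, 2.57 and 0.460 CPM in ICI and 1.77, 0.947 and 0.327 CPM in RT_ICI, with a log2 fold change of -0.96 (SE 0.77, 95% interval -2.75 to 0.82, edgeR adjusted p = 0.415). Near-identity to Gbp4 covers 7.8% of the Gbp8 transcript and 5.5% of that of Gbp9.

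**Figure D2:**
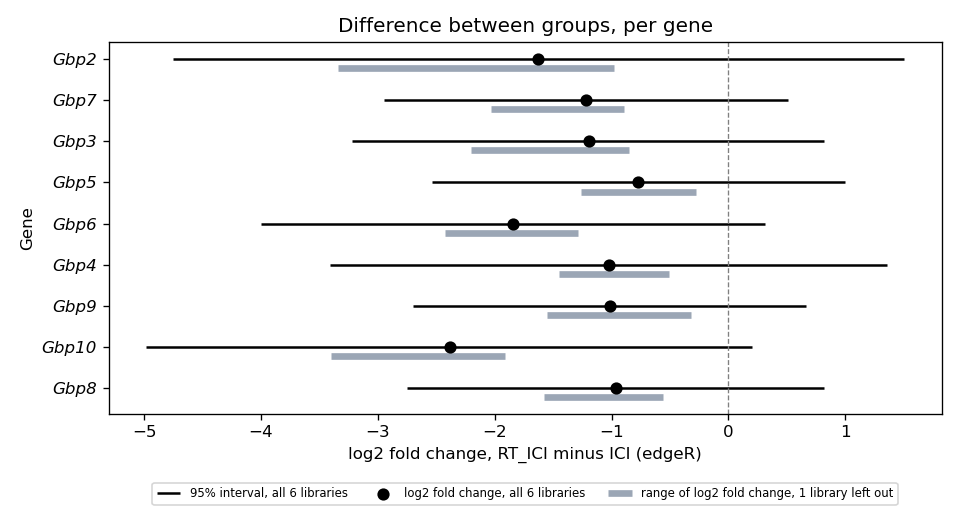
Log2 fold change (RT_ICI minus ICI, edgeR) of each of the 9 genes as a black point with its 95% interval, and in grey the range of the log2 fold change when each of the 6 libraries was left out in turn. All 9 points lie between -2.39 and -0.77, each 95% interval includes 0, and each grey range stays below 0.

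The order of the libraries was shared by most members. RT_ICI replicate 1 was the highest of its group for 9 of 9 members, above ICI replicate 3 for 9 and below ICI replicate 1 for 9. ICI replicate 3 was the lowest of its group for 8 members. RT_ICI replicate 4 was below ICI replicate 3 for 9 and the lowest of RT_ICI for 8, Gbp3 being the exception. RT_ICI replicate 2 was below ICI replicate 3 for 5 members, namely Gbp2, Gbp3, Gbp7, Gbp9 and Gbp10. Leaving out RT_ICI replicate 1 moved the members' median log2 fold change from -1.20 to -2.03, with 3 of 9 members at an unadjusted p under 0.05 beside 36.9% of all genes. Leaving out ICI replicate 3 moved it to -1.62, with 4 of 9 such members beside 24.2% of all genes. Members share these libraries, so their common order is no sum of independent evidence.

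Per kilobase of the longest transcript, Gbp2 and Gbp3 had the highest levels. In ICI the levels were 33.1 ± 25.9 CPM per kilobase for Gbp2, 21.4 ± 12.5 for Gbp3, 11.1 ± 8.07 for Gbp6, 10.4 ± 5.68 for Gbp7 and 6.66 ± 4.22 for Gbp4 (SD, n = 3). They went on with 2.37 ± 1.61 for Gbp9, 2.06 ± 0.946 for Gbp5, 1.66 ± 1.25 for Gbp10 and 0.593 ± 0.401 for Gbp8. No neighbours in this order differed by more than their summed SDs. Within libraries the order was firmer: Gbp2, Gbp3, Gbp6, Gbp7 and Gbp4 took the first 5 places in all 6 libraries. Gbp2 was first in 3 libraries (ICI replicates 1 and 2 and RT_ICI replicate 1) and Gbp3 in the other 3. In RT_ICI the levels per kilobase were 10.7 ± 13.0 for Gbp2, 9.32 ± 8.13 for Gbp3, 4.45 ± 3.35 for Gbp7, 3.25 ± 2.42 for Gbp4 and 3.09 ± 1.98 for Gbp6. The remaining 4 were 1.20 ± 0.892 for Gbp5, 1.16 ± 0.790 for Gbp9, 0.314 ± 0.308 for Gbp10 and 0.300 ± 0.215 for Gbp8. Gbp4 held the fifth place in 5 libraries and the second in RT_ICI replicate 2. The order depends on the length used. Per kilobase of merged exons, mean Gbp7 (10.4) stood above Gbp6 (7.93) and Gbp10 (1.52) above Gbp5 (1.17) in ICI. In RT_ICI, Gbp6 (2.20) stood above Gbp4 (1.97), Gbp9 (1.13) above Gbp5 (0.678) and Gbp8 (0.295) above Gbp10 (0.286). The levels of Gbp6 and Gbp10 also carry the doubt over shared reads given above.

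The clusters on chromosome 3 and chromosome 5 were lower by like amounts in RT_ICI, and neither difference exceeded the spread between libraries. The 4 chromosome 3 members summed to 254, 305 and 60.7 CPM in ICI and 169, 43.5 and 32.3 CPM in RT_ICI. The difference in mean log2 was -1.44 (two-sided exact permutation test, p = 0.2, where the smallest possible p with 3 against 3 is 0.1). The 5 chromosome 5 members summed to 117, 145 and 29.3 CPM in ICI and 57.5, 40.3 and 9.66 CPM in RT_ICI, a difference of -1.49 (exact permutation p = 0.3). In both clusters ICI replicate 2 was the highest library and RT_ICI replicate 4 the lowest.

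The balance between the clusters was even across the ICI libraries and uneven across the RT_ICI libraries. The chromosome 3 sum was 2.18, 2.10 and 2.07 times the chromosome 5 sum in ICI, and 2.93, 1.08 and 3.34 times in RT_ICI. The mean ratios were 2.11 ± 0.0553 and 2.45 ± 1.20 (SD, n = 3 each), with a difference in mean log2 of 0.06 (exact permutation p = 1). This difference takes its sign from single RT_ICI libraries: it was -0.15 without RT_ICI replicate 1, -0.25 without RT_ICI replicate 4 and 0.57 without RT_ICI replicate 2. The difference in spread between the groups was not tested.

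The low ratio in RT_ICI replicate 2 went with a high share of Gbp4 and a low share of Gbp2. Gbp4 made up 24.3% of the 9 genes' counts there (95% Wilson interval 23.0% to 25.7%, 905 of 3720 counts), against 8.45%, 10.8% and 11.7% in ICI and 9.62% and 4.89% in RT_ICI replicates 1 and 4. Gbp2 made up 11.3% there, its lowest share, and 32.1% in ICI replicate 2, its highest. Gbp5, although on chromosome 3, had its highest share in the same library, 6.61% (interval 5.86% to 7.46%), against 1.71% to 4.69% in the others. Such differences between single libraries are larger than counting error. Between groups, no member's share differed beyond the spread: exact permutation p-values ran from 0.3 to 1 over the 9 members, and from 0.9 to 1 after Benjamini-Hochberg adjustment over these 9 tests.

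**Figure D3:**
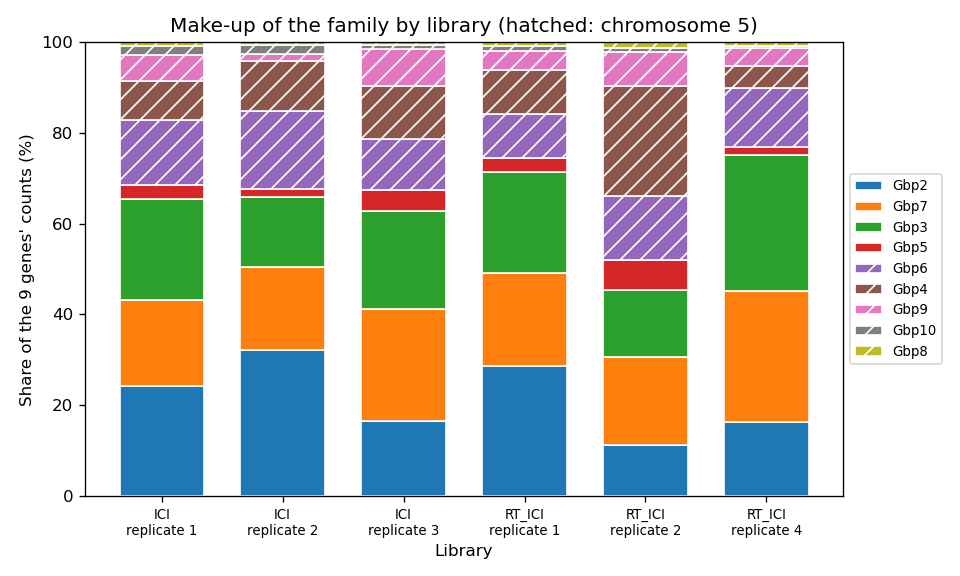
Share (%) of each gene in the summed counts of the 9 genes in each library, with the chromosome 5 genes hatched. Gbp4 (brown) takes 24.3% in RT_ICI replicate 2 and between 4.89% and 11.7% in the other libraries.

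The family genes outside the 9, Gbp2b on chromosome 3 and the polymorphic pseudogene Gbp11 on chromosome 5, were barely present. Gbp2b, the third prenylated family member, had 2, 3 and 1 counts in ICI and 7, 0 and 0 in RT_ICI, too few to be tested, and a count of 0 allows up to 3 counts. Gbp11 stood between 0.167 and 1.89 CPM, with a log2 fold change of -0.61 (SE 0.75, edgeR adjusted p = 0.602) that was 0.42 without ICI replicate 2.

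Ifng, the gene of the ligand interferon gamma, had 8, 155 and 0 counts in ICI and 35, 0 and 2 in RT_ICI and was too low to be tested. Its row is overlapped by a gene model of low counts, Gm49751, and is uncertain to that extent. The highest counts fell in ICI replicate 2 and RT_ICI replicate 1. RT_ICI replicate 1 was the highest of its group for 9 of 9 members, and ICI replicate 2 for 5 of 9. Ifng had 8 counts in ICI replicate 1 and 155 in ICI replicate 2. The average member stood at 1.42 and 1.40 there, on the log2 CPM scale centred on its mean over the 6 libraries. Summed, the 9 members stood at 371 CPM in ICI replicate 1 and 450 CPM in ICI replicate 2. A link between Ifng and the Gbp values was not tested. Ifnb1 had 8, 0 and 0 counts in ICI and 4, 0 and 3 in RT_ICI. Of the 4 receptor chain genes tested, edgeR and limma-voom called 0, DESeq2 called 1 lower (Ifngr2), and 2 had an unadjusted edgeR p under 0.05. Over all genes DESeq2 called 10.1% lower, and 31.5% had an unadjusted edgeR p under 0.05. Ifngr1, which binds the ligand, had a log2 fold change of 0.07 (edgeR adjusted p = 0.797), which turned to -0.03 without ICI replicate 3. Ifngr2, the signalling chain, stood at 71.0, 58.1 and 66.4 CPM in ICI and at 55.3, 40.4 and 35.0 CPM in RT_ICI. Its groups did not overlap (log2 fold change -0.58, SE 0.18, edgeR adjusted p = 0.0775).

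Of 14 signal transducers and regulators downstream of the interferon receptors, all tested, edgeR called 1 lower and 0 higher, with 4 at an unadjusted p under 0.05 and a median log2 fold change of -0.44. This is no larger a share than the 9.18% called over all genes, and 31.5% of all genes had an unadjusted p under 0.05. DESeq2 called 2 lower and 1 higher, beside 20.4% of all genes in either direction and 10.1% lower, and limma-voom called 0. Irf1, a transcription factor needed for full Gbp induction, stood at 55.8, 113 and 29.3 CPM in ICI and at 49.1, 50.1 and 23.5 CPM in RT_ICI (log2 fold change -0.69, edgeR adjusted p = 0.413). Irf9, part of the factor that carries type I interferon signals, was the called gene. It stood at 70.5, 50.7 and 53.8 CPM in ICI and at 35.5, 39.6 and 38.7 CPM in RT_ICI, without overlap. It fell by 0.62 on the log2 scale (SE 0.15, edgeR adjusted p = 0.0454). This call was lost without any 1 of the libraries other than RT_ICI replicate 1, with adjusted p-values from 0.0569 to 0.165. It was also lost with upper-quartile scaling (0.0578), with limma-voom (0.0556) and with length and GC offsets (0.06), where the log2 fold change was -0.53, -0.60 and -0.58. Ciita, the regulator of MHC class II genes, stood at 3.74, 12.1 and 0.606 CPM in ICI and at 3.58, 0.834 and 0.327 CPM in RT_ICI, highest where Ifng was highest (log2 fold change -1.79, SE 1.23, edgeR adjusted p = 0.357).

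The immunity-related GTPases, a second family of interferon-induced GTPases that act on the same vacuoles, had values like those of the Gbp genes. All 8 in the matrix were tested and 8 of 8 were negative, with a median log2 fold change of -1.34. EdgeR, DESeq2 and limma-voom each called 0, and edgeR had 0 at an unadjusted p under 0.05. Over all genes edgeR called 9.18%, DESeq2 20.4% and limma-voom 7.84%, and 31.5% had an unadjusted edgeR p under 0.05. Tgtp2 stood at 279, 629 and 49.3 CPM in ICI and at 282, 51.3 and 23.4 CPM in RT_ICI, and it has a close copy, Tgtp1, with which reads may be shared. Irgm1 stood at 239, 328 and 90.6 CPM in ICI and at 209, 96.5 and 47.8 CPM in RT_ICI.

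The 3 chemokines induced by interferon gamma, which draw T cells into tissue, were all negative, with a median log2 fold change of -0.77. EdgeR called 0, with 2 of 3 at an unadjusted p under 0.05, beside 31.5% of all genes. Limma-voom called 0, and DESeq2 called 2 of 3 lower, beside 10.1% of all genes. Cxcl9 stood at 39.4, 35.1 and 16.4 CPM in ICI and at 17.2, 7.46 and 3.92 CPM in RT_ICI (log2 fold change -1.66, SE 0.59, edgeR adjusted p = 0.117). Cxcl10 stood at 253, 232 and 155 CPM in ICI and at 142, 76.4 and 157 CPM in RT_ICI (log2 fold change -0.77, SE 0.29, edgeR adjusted p = 0.123). Of 11 type I interferon-stimulated genes tested, 11 were negative, with a median log2 fold change of -1.66. EdgeR called 0, with 8 of 11 at an unadjusted p under 0.05, beside 31.5% of all genes. Limma-voom called 0, and DESeq2 called 5 of 11 lower, beside 10.1% of all genes. Ifit3 (303, 89.6 and 25.8 CPM in ICI; 49.8, 18.5 and 31.7 CPM in RT_ICI) and Rsad2 (235, 83.7 and 55.6 CPM in ICI; 58.6, 19.4 and 33.7 CPM in RT_ICI) had the highest mean CPM of the list.

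These lists followed the libraries in different ways. Centred on its mean over the 6 libraries, the average member of the 9 stood at 1.42, 1.40 and -0.68 in ICI and at 0.55, -0.62 and -2.08 in RT_ICI, on the log2 CPM scale. The immunity-related GTPases stood at 1.21, 1.97 and -1.02 in ICI and at 0.90, -1.06 and -2.0 in RT_ICI. The type I list was set apart by ICI replicate 1, at 1.90. It stood at 0.29 in ICI replicate 2 and -0.14 in ICI replicate 3, and at -0.29, -1.33 and -0.44 in RT_ICI. The 5 named genes nearest to the members' average profile, out of 12148 genes ranked by root mean square distance over the 6 libraries, were Irgm2 at 0.226, Apol10b at 0.272, Iigp1 at 0.332, Irgm1 at 0.353 and Ifi47 at 0.398 log2 units. Of these, 4 are immunity-related GTPases. The members themselves lay between 0.322 for Gbp6 and 0.660 for Gbp9.

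**Figure D4:**
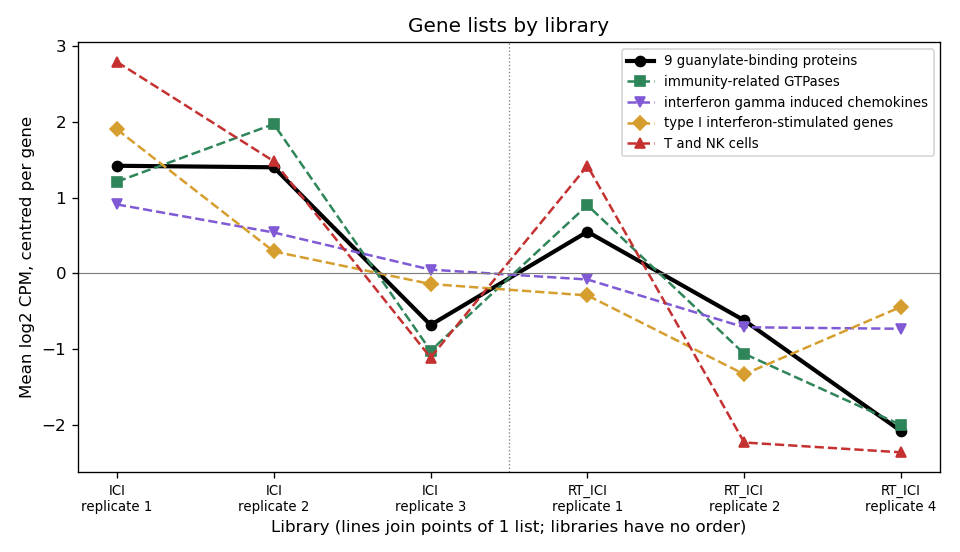
Mean log2 CPM, centred per gene over the 6 libraries, of the 9 guanylate-binding proteins (black) and of 4 gene lists, by library. The members, the immunity-related GTPases and the T and NK cell markers are each higher in RT_ICI replicate 1 than in ICI replicate 3, while the type I interferon list is highest in ICI replicate 1 (1.90) and below 0 in all RT_ICI libraries.

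Markers of T and NK cells moved with the Gbp genes across the libraries. Their summed level was 82.1, 41.1 and 4.14 CPM in ICI and 37.1, 1.67 and 1.91 CPM in RT_ICI. Of 11 markers, 9 were tested and edgeR called 0, with 0 at an unadjusted p under 0.05, and the median log2 fold change was -1.83. Over all genes, edgeR called 9.18%, and 31.5% had an unadjusted p under 0.05. Cd8a stood at 11.6, 4.58 and 0.585 CPM in ICI and at 2.09, 0.361 and 0.280 CPM in RT_ICI. Ncr1 was at 0 in all libraries but ICI replicate 3, where it had 2 counts, and Cd2 was at 0 in RT_ICI replicate 4. Macrophage and monocyte markers (8 tested, 0 called, 3 at an unadjusted p under 0.05) summed to between 92.3 and 142 CPM in ICI and between 110 and 191 CPM in RT_ICI, with RT_ICI replicate 1 the highest. Endothelial markers (5 tested, 0 called, 0 at an unadjusted p under 0.05) summed to between 50.9 and 133 CPM in ICI and between 30.1 and 157 CPM in RT_ICI. The part of any of these cells in the Gbp values was not tested.

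Among the genes that act on or with the proteins, edgeR called 1. Of 5 genes of protein prenylation, which equips Gbp2 and Gbp5 for membranes, edgeR called 1 lower and 0 higher. Over all genes it called 4.72% lower and 4.46% higher. At an unadjusted p under 0.05 there were 4 of the 5, beside 31.5% of all genes. Among these, Pggt1b was higher in RT_ICI (log2 fold change 0.44, edgeR adjusted p = 0.116) and the rest were lower. All RT_ICI libraries lay below all ICI libraries for 3 of the 5, beside 19.4% of all genes. DESeq2 and limma-voom each called 1 lower and 0 higher. Over all genes DESeq2 called 20.4% in either direction and 10.1% lower. The gene edgeR called was Icmt, which methylates the prenylated end. It stood at 94.96, 66.2 and 81.2 CPM in ICI and at 42.8, 39.8 and 43.3 CPM in RT_ICI, without overlap, and fell by 0.95 on the log2 scale (SE 0.15, edgeR adjusted p = 0.0261). The call was lost without ICI replicate 1 (adjusted p = 0.137), ICI replicate 3 (0.10), RT_ICI replicate 2 (0.0903) or RT_ICI replicate 4 (0.0704). Of 10 LC3 lipidation genes, which steer the family to vacuoles, edgeR called 0, with 3 at an unadjusted p under 0.05, limma-voom called 0 and DESeq2 called 1 lower. The median log2 fold change was 0.07. Gabarap was at -0.13 (edgeR adjusted p = 0.723) and Gabarapl1 at 0.21 (edgeR adjusted p = 0.585). Of 9 inflammasome genes that the proteins act upon, edgeR called 0, with 2 at an unadjusted p under 0.05, limma-voom called 0 and DESeq2 called 1 higher. The median was 0.13. Casp4, which senses bacterial lipopolysaccharide freed by the family, was at 0.13 (95% interval -0.61 to 0.86), and Nek7, a partner of NLRP3, at -0.37 (95% interval -0.65 to -0.09, edgeR adjusted p = 0.0868). Besides Nek7, the inflammasome gene at an unadjusted p under 0.05 was Il18, which was higher in RT_ICI. Its log2 fold change was 0.99 (95% interval 0.35 to 1.64, edgeR adjusted p = 0.0604). The values of Gabarap, Gabarapl1 and Casp4 each changed sign when 1 library was left out.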

How the data were processed

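The count matrix the authors deposited holds whole numbers in 34665 gene rows for 6 libraries. HISAT2 is named as a tool and GRCm38 and mm10 as builds, per the submitters' processing notes. Not given in the sources used here are the counting tool, annotation release, strand setting, versions and treatment of multiply placed reads. Since the labels do not state that the libraries are separate animals, p-values cover only the spread among these libraries, which may be technical. Wilson intervals cover counting error only, while the intervals of log2 fold changes come from the fit and include the spread between libraries.

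Counts were tested with edgeR 4.0.16 in R 4.3.3: filterByExpr (16924 genes left, all 9 members included), TMM scaling, and the robust quasi-likelihood test of RT_ICI against ICI with no covariate. Calls needed an adjusted p (Benjamini-Hochberg) under 0.05. The code was tested on simulated counts. Sums, ratios and shares were compared by two-sided exact permutation over libraries. Positions, lengths and overlaps came from GENCODE M21, and near-identity from blastn 2.17.0. Promoter sequences came from RefSeq.

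The members and lists were chosen with earlier results of these data known. Named genes were the members, Gbp2b and Gbp11, interferon ligands, receptors and transducers, called genes of each other pathway list (at most 4, or the 2 of highest CPM), and the 5 nearest profiles with a mean of at least 1 CPM. Cell markers, Gm43302 and others were named after their values were seen. Of the transducers, 1 gene is not reported here.

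Alternatives were other scalings, no filter, a filter of 1 CPM in 3 libraries, DESeq2 1.42.0, limma-voom (limma 3.58.1), a non-robust fit, a replicate block, length and GC offsets, other thresholds, near-identical members summed, and each library left out. The sum of Gbp6, Gbp10 and Gm43302 was added after seeing the data.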

Additional observations from a re-analysis of the deposited data

How the results depend on the processing

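All 9 members kept a negative log2 fold change in every fit in which they were a row of their own, and 0 were called higher in any. The replicate numbers 1 and 2 occur in both groups, but nothing in the labels says that they pair tumours. The deviations of same-numbered libraries from their group means correlated at 0.353 for number 1 and 0.091 for number 2. Between libraries of different numbers these correlations ran from -0.32 to 0.27, the latter for ICI replicate 3 with RT_ICI replicate 4. In a fit with the replicate block, ICI replicate 3 and RT_ICI replicate 4 each have a term of their own. The group difference in such a fit therefore rests on replicates 1 and 2 of each group alone. With this block, 2 of 9 members were called lower, beside 1.45% of all genes. They were Gbp6 at -2.0 (edgeR adjusted p = 0.0363) and Gbp10 at -2.57 (edgeR adjusted p = 0.0294), which share near-identical sequence. In this fit 6 of 9 members had an unadjusted p under 0.05, beside 24.9% of all genes. With length and GC offsets added to the replicate block, 0 members and 0.617% of all genes were called lower. Gbp6 and Gbp10 both stood at an adjusted p of 0.0692 there, and 4 of 9 members had an unadjusted p under 0.05, beside 22.7% of all genes. In every other fit 0 members were called. Over all genes the replicate block gave 245 lower and 400 higher calls, and the replicate block with the offsets 104 and 188, against 799 and 754 in the fit reported. Of the 11 type I interferon-stimulated genes tested, the replicate block called 10 lower, and 7 with the offsets added, and of the 3 chemokines the replicate block called 2. Irf9 lost its call with the replicate block (-0.67, edgeR adjusted p = 0.107) and with the offsets added to it (-0.65, 0.134), and Icmt in the latter (-0.97, 0.0524).

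Calls over all genes moved further. Lower and higher calls were 1703 and 1746 by DESeq2, 353 and 264 with length and GC offsets, 1833 and 1802 at an adjusted p under 0.1, and 156 and 431 with a log2 fold change of at least 1. Lower calls were 497 with upper-quartile scaling, which shifts the median of all genes to 0.10, and 1507 with no filter. With 1 library left out, lower calls ran from 0 to 1545 and higher calls from 0 to 1564. The difference in the log2 ratio of the clusters ran from -0.25 to 0.57. Of 637 values of single genes under alternatives, 591 kept their sign and side of the threshold, 14 changed sign, 15 lost a call and 17 gained one. Gbp11 was 0.01 by limma-voom and ran from -1.13 to 0.42 with 1 library left out, Ifngr1 from -0.03 to 0.21, Gabarap from -0.34 to 0.05, Gabarapl1 from -0.04 to 0.42 and Casp4 from -0.15 to 0.31. With the block and offsets Ifngr1 was -0.03, Gabarapl1 -0.15 and Casp4 -0.42. Gabarapl1 was 0 with the offsets alone and Casp4 -0.38 with the block alone. The cause was not tested in any of these. Depth limits Gbp10 and Gbp8, which had 4 and 7 counts in RT_ICI replicate 4, and Ifng and Gbp2b, which had libraries at 0.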
